A study of Mus musculus with 27 samples.

Results

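The peroxisome proliferator-activated receptors Ppara, Ppard and Pparg, their dimer partner Rxra, and Angptl4, Pdk4, Cpt1a and Plin2, textbook targets of these receptors in fatty acid metabolism, were read in 9 groups of mouse esophagus. The genes were taken by name, as all spots that were not controls and whose gene name was 1 of these 8, a rule that itself uses no measured value. They made up 8 of the 28427 gene names on the array and 10 of its 41174 probes. Rxra and Cpt1a each had 2 probes and the other genes 1, and Plin2 stands under its older name Adfp on some of the arrays' annotations. Each gene was given as the log2 ratio of the sample (Cy5) to a common reference RNA (Cy3), a pool from mouse cell lines, so a value of 0 means that sample and reference gave the same signal. Values of 1 gene can be compared across groups, and values of different genes cannot be compared with each other.

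All groups held 3 arrays, each of RNA from 1 esophagus, on a C57BL/6J background. Whole esophagus of wild-type embryos represents E11.5 and E15.5, and that of wild-type pups represents P0 and P7. At P7, whole esophagus also came from Nrf2-/-, Keap1-/- and Nrf2-/-Keap1-/- pups, which carry the deletion in every tissue. Wild-type and Nrf2-/- adults were 8 weeks old, and there only the esophageal epithelium was used, so age and tissue cannot be told apart in the step from P7 to adult. In bulk RNA, fewer cells of a type and less RNA per cell cannot be told apart either.

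Ppar receptors are nuclear receptors that are switched on by fatty acids and their derivatives and bind DNA as dimers with Rxr receptors, at paired AGGTCA hexamers spaced by 1 base. Ppara is known for driving fatty acid oxidation in liver, heart and muscle, Pparg for driving fat cell formation and lipid storage, and Ppard is widely expressed and has a known part in keratinocyte differentiation in skin. Nrf2 is the transcription factor of the oxidative stress response, and Keap1 holds it in the cytoplasm and marks it for degradation, so that loss of Keap1 leaves Nrf2 active.

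The 250 bases before the transcription start are printed for Pparg, with its 3 starts, because it differed most between genotypes, and for Pdk4, Cpt1a and Plin2, the targets called between E15.5 and P0. They were taken from RefSeq (GRCm38.p6), which gave 10 such sequences for 7 of the 8 genes and none for Angptl4. Sequences run 5′ to 3′ on the strand of the gene and end at the base before the start. Capitals mark matches, on either strand, to the receptor hexamer AGGTCA, which reads TGACCT when it lies on the other strand, or to TGACNNNGC, the core of the antioxidant response element that Nrf2 binds.

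Pparg, start 1 (chr6:115360894-115361143, plus strand): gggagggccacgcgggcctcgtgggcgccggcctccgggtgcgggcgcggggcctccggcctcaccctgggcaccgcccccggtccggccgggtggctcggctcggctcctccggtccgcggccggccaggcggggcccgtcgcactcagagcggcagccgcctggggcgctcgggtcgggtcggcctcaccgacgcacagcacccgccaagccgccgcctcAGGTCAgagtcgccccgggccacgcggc
Pparg, start 2 (chr6:115362099-115362348, plus strand): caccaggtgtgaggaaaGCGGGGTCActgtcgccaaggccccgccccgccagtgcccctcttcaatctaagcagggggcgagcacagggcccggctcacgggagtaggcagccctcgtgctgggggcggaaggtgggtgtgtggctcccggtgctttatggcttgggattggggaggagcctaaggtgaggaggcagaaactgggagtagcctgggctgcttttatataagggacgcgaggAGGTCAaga
Pparg, start 3 (chr6:115421816-115422065, plus strand): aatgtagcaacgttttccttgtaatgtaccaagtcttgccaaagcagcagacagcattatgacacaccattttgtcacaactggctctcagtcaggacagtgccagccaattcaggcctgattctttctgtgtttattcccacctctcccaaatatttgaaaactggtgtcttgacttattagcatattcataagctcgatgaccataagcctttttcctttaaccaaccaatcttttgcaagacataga
Pdk4 (chr6:5496279-5496528, minus strand): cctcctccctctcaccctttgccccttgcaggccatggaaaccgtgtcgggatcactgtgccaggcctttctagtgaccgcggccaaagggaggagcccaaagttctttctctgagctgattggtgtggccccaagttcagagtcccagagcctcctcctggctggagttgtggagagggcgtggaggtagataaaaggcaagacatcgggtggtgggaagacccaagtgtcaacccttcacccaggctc
Cpt1a (chr19:3323051-3323300, plus strand): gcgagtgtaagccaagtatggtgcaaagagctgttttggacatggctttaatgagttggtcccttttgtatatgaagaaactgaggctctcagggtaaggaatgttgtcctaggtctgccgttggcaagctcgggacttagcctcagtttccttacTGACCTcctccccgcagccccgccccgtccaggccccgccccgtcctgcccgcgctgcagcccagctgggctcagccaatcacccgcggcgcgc
Plin2 (chr4:86670060-86670309, minus strand): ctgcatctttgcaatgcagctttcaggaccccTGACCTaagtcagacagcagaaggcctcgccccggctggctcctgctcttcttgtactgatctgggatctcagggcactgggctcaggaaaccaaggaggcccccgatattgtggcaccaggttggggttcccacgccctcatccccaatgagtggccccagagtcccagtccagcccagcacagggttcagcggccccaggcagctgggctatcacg

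No direct repeat of AGGTCA with 1 base between the hexamers, on either strand, lay in any of the 10 sequences, and 0.0335% of the 32841 RefSeq promoters of this length held one. Its relaxed form, with AGGNCA for each hexamer, was also in 0 of the 10 and in 0.338% of all promoters. The single hexamer AGGTCA was in 5 of the 10 sequences, starts 1 and 2 of Pparg, start 2 of Rxra, Cpt1a and Plin2, and in 14% of all promoters. TGACNNNGC was in 1 of the 10, start 2 of Pparg, and in 10.2% of all promoters. These are matches of letters within 250 bases and say nothing about sites farther away or about binding.

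Before the genes themselves, 2 properties of the arrays have to be given. Across 19853 genes, Pearson's r of array E11.5 replicate 3 was 0.831 and 0.774 with the other arrays of its own age, but 0.981 and 0.976 with replicates 2 and 3 of E15.5. In turn, r of array E15.5 replicate 1 was 0.803 and 0.813 with its own age and 0.957 and 0.928 with replicates 1 and 2 of E11.5. Labels were kept as given, and the calls of the 8 genes in these groups are given with and without both arrays, while lists and markers are given with all arrays. The 27 arrays lay on 11 slides and were read in 4 scans, and the 3 Keap1-/- arrays had a slide and a scan to themselves, so that genotype and scan cannot be told apart for them. The 3 wild-type P7 arrays also had a slide to themselves, and the E11.5 and the Nrf2-/- P7 arrays each lay on 1 other slide. Slide therefore cannot be told apart from age between E11.5 and P7, or from genotype between wild-type and Nrf2-/- at P7. As a check of the labels, Nfe2l2, which encodes Nrf2, was lower in Nrf2-/- at P7 by a log2 difference of -3.63, in Nrf2-/-Keap1-/- by -3.86 and in adult Nrf2-/- by -4.30. Nqo1, an enzyme gene that Nrf2 switches on, was 29.7 times as high in Keap1-/- as in wild-type. The Keap1 probe itself was lower by a log2 difference of -0.45 in Keap1-/- (adjusted p = 0.145) and of -0.99 in the double mutant (adjusted p = 0.0789), neither below the threshold.

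**Figure D1:**
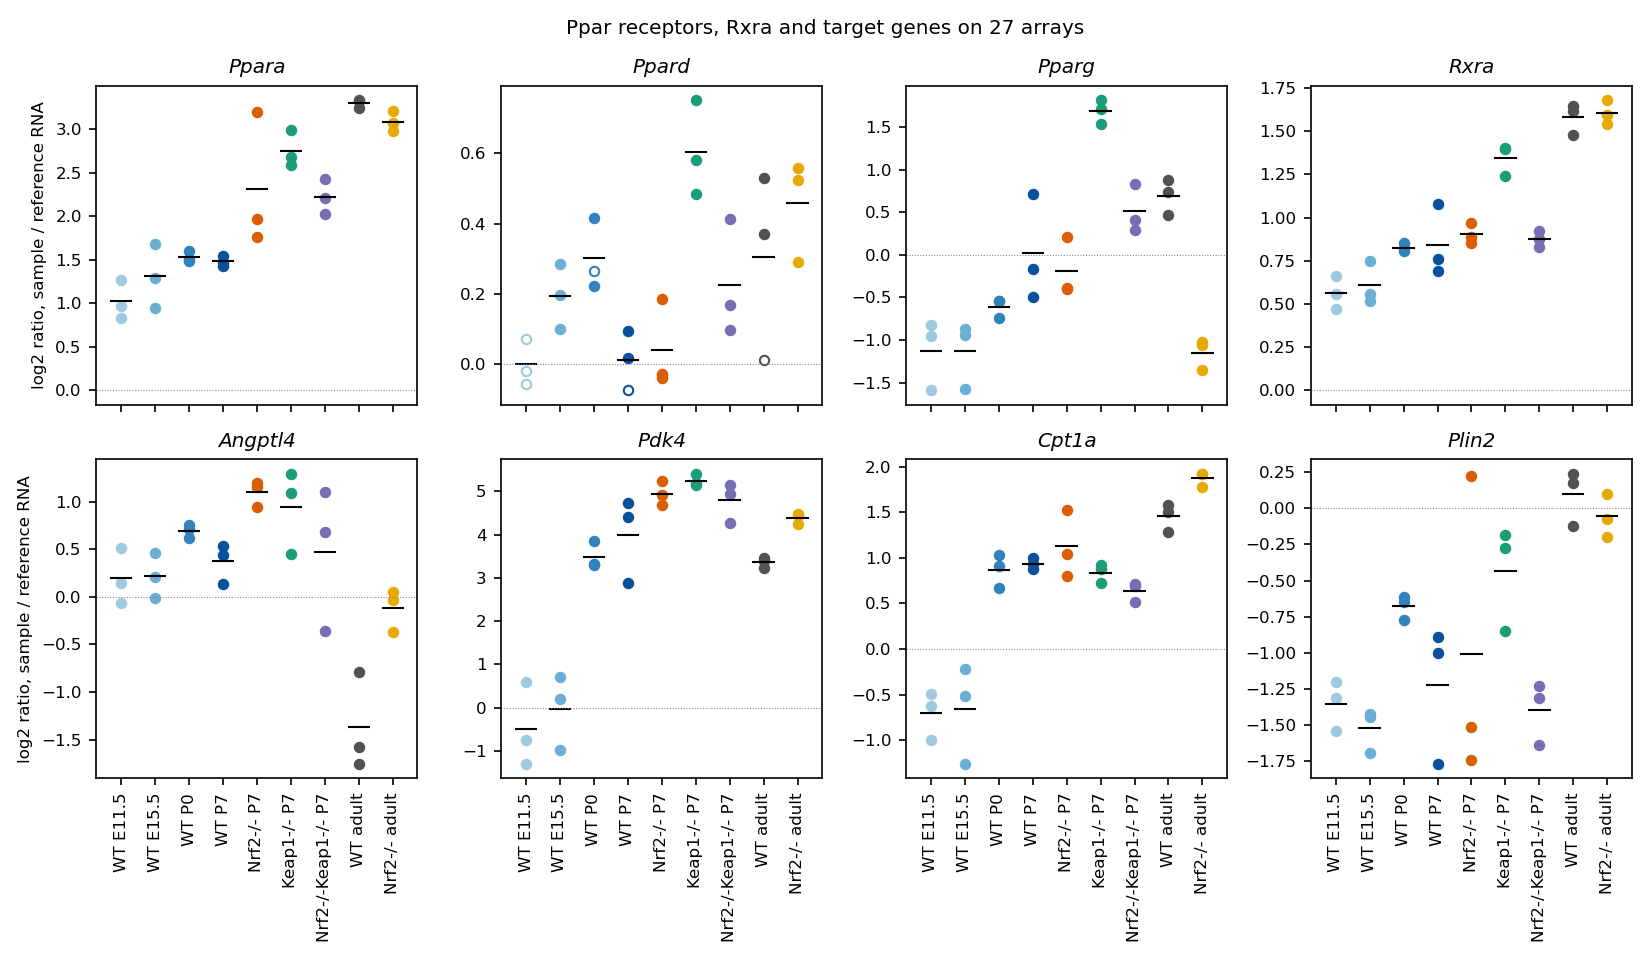
Log2 ratio of sample to reference RNA (vertical axis) for each of the 8 genes on all 27 arrays, grouped on the horizontal axis by age and genotype, with 1 point per array and a line at the group mean. Pdk4 rises from a mean of -0.03 at E15.5 to 3.49 at P0, and Pparg falls from 0.69 in wild-type to -1.15 in Nrf2-/- adult epithelium.

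Across the 9 groups, Pdk4 covered the widest span, a log2 difference of 5.74 between its lowest and highest group mean. Pparg followed with 2.83, Cpt1a with 2.58, Angptl4 with 2.47, Ppara with 2.27, Plin2 with 1.62, Rxra with 1.04 and Ppard with 0.61. Ordered by group mean, neighbouring groups mostly overlapped. All 8 neighbouring pairs overlapped for Ppard and Plin2, 7 of 8 for Angptl4 and Pdk4, 6 for Ppara and 5 for Pparg, Rxra and Cpt1a.

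Ppara, the receptor of fatty acid oxidation, was lowest at E11.5, where its log2 ratios were 0.83, 0.97 and 1.27. It read 0.95, 1.29 and 1.69 at E15.5, 1.49, 1.51 and 1.61 at P0, and 1.47, 1.55 and 1.43 at P7. In the P7 mutants it stood higher, at 1.97, 1.76 and 3.20 in Nrf2-/-, 2.68, 2.59 and 2.99 in Keap1-/-, and 2.43, 2.03 and 2.21 in the double mutant. Every mutant array lay above every wild-type P7 array, and replicate 3 of Nrf2-/- stood well above the others of its group. The adult epithelium held the highest values, 3.24, 3.33 and 3.33 in wild-type and 3.21, 2.98 and 3.07 in Nrf2-/-. From lowest to highest mean, the order was E11.5, E15.5, P7, P0, double mutant, Nrf2-/-, Keap1-/-, adult Nrf2-/- and adult wild-type. Only the step from P0 to the double mutant and the step from adult Nrf2-/- to adult wild-type separated neighbours without overlap.

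Ppard was dim. Its single probe was well above background in Cy5 on 21 of 27 arrays, on none of the 3 at E11.5, and on 2 of 3 at P0, P7 and in wild-type adults. Log2 ratios were -0.02, 0.07 and -0.06 at E11.5, 0.10, 0.29 and 0.20 at E15.5, 0.22, 0.26 and 0.42 at P0, and -0.07, 0.02 and 0.10 at P7. Keap1-/- esophagus gave 0.48, 0.58 and 0.75, the highest group mean of all. Against E11.5, where the probe was not well above background, the Cy5 signal of Keap1-/- was 1.46 times as high. That ratio compares mean Cy5 signals on the log2 scale, after quantile normalization of average intensities between arrays. It uses the signal measured at E11.5, has no error attached and is open to dye bias, since no dyes were swapped. The Nrf2-/- arrays read -0.04, 0.19 and -0.03, the double mutant 0.41, 0.17 and 0.10, adult wild-type 0.53, 0.37 and 0.01, and adult Nrf2-/- 0.56, 0.52 and 0.29.

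Pparg, the receptor of fat cell formation, read -1.59, -0.83 and -0.96 at E11.5, -1.57, -0.95 and -0.87 at E15.5, and -0.55, -0.54 and -0.74 at P0. At P7 the wild-type arrays were spread over 0.71, -0.17 and -0.50. Keap1-/- arrays gave 1.53, 1.81 and 1.71, above all other arrays of the series, while Nrf2-/- arrays gave -0.40, -0.39 and 0.21 and the double mutant 0.83, 0.41 and 0.29. In adult epithelium the wild-type read 0.74, 0.88 and 0.46 and the Nrf2-/- arrays -1.06, -1.35 and -1.03. Adult Nrf2-/- thus had the lowest group mean and lay within the range of the embryonic arrays.

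Rxra, the common dimer partner, moved least after Ppard. It read 0.66, 0.47 and 0.56 at E11.5, 0.75, 0.51 and 0.55 at E15.5, 0.82, 0.85 and 0.81 at P0, and 0.69, 1.08 and 0.76 at P7. Keap1-/- arrays stood higher, at 1.24, 1.39 and 1.40, and did not overlap with Nrf2-/- (0.85, 0.89 and 0.97) or the double mutant (0.88, 0.83 and 0.92). Adult epithelium was highest, at 1.62, 1.65 and 1.48 in wild-type and 1.68, 1.59 and 1.54 in Nrf2-/-.

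Among the targets, Pdk4, the kinase that shuts off pyruvate dehydrogenase and so spares glucose when fat is burnt, read -1.30, -0.76 and 0.58 at E11.5 and -0.99, 0.70 and 0.20 at E15.5. The high array at E11.5 and the low array at E15.5 were those that stand apart. It then read 3.32, 3.30 and 3.85 at P0 and 4.4, 2.88 and 4.73 at P7. Mutant arrays at P7 lay between 4.28 and 5.41, adult wild-type arrays at 3.47, 3.23 and 3.38, and adult Nrf2-/- arrays at 4.25, 4.47 and 4.45.

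Cpt1a, which loads long fatty acids onto carnitine for entry into mitochondria, lay between -1.26 and -0.22 on all 6 embryonic arrays and between 0.51 and 1.53 on all 15 arrays from P0 and P7. Adult epithelium was higher still, at 1.58, 1.28 and 1.5 in wild-type and 1.92, 1.78 and 1.92 in Nrf2-/-. Plin2, a coat protein of lipid droplets, ranged from -1.77 to 0.22 on the whole-esophagus arrays, the highest being replicate 3 of Nrf2-/- at P7. In adult epithelium it read 0.24, 0.18 and -0.12 in wild-type and -0.07, -0.20 and 0.10 in Nrf2-/-. Angptl4, a secreted inhibitor of lipoprotein lipase, lay between -0.06 and 0.75 on the wild-type whole-esophagus arrays, with group means of 0.20, 0.22, 0.69 and 0.37 from E11.5 to P7. In adult epithelium it read -1.58, -1.75 and -0.79 in wild-type and -0.37, -0.03 and 0.05 in Nrf2-/-, so the wild-type adult arrays were the lowest.

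During the metaplasia phase, from E11.5 to P7, the comparison asks which of these genes change as the simple epithelium becomes stratified. None of the 8 passed the threshold (an adjusted p of 0.05 or lower) from E11.5 to E15.5, where 0% of all 19860 genes tested were called by limma and 1.67% passed 0.05 before adjustment. No member of the 8 passed 0.05 even so, the lowest unadjusted p being 0.0799 for Ppard. Groups did not overlap for 1 of the 8, Ppard, against 3.9% of all genes. Without both arrays that stand apart, Ppara was called, with a log2 increase of 0.59 (adjusted p = 0.0279), in a fit that called 13.7% of all genes.

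From E15.5 to P0, 3 of the 8 genes rose and none fell, against 19.8% of all genes called and 11.3% called higher and 8.46% lower. The groups did not overlap for 6 of the 8, against 43.9% of all genes. Of all calls, 57.2% were higher, or 39.9% with median centring in place of loess. Pdk4 rose by 3.52 on the log2 scale (SE 0.60, adjusted p = 0.003), an 11.5-fold change, Cpt1a by 1.53 (SE 0.24, adjusted p = 0.00184) and Plin2 by 0.85 (SE 0.21, adjusted p = 0.0169). Without both arrays that stand apart the same 3 genes were called, at 3.04, 1.23 and 0.76. The call of Plin2 was lost in 3 of 12 runs that each left out 1 array, namely E15.5 replicate 1, P0 replicate 2 or P0 replicate 3, with an adjusted p of up to 0.0613. It was also lost with all 27 arrays in the fit (adjusted p = 0.0634). No receptor was called. Angptl4 differed by 0.47 with an adjusted p of 0.0801.

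From P0 to P7 none of the 8 was called by limma, against 2.4% of all genes, 1.45% higher and 0.952% lower. For 4 of the 8 the groups did not overlap, against 28.1% of all genes, and 2 of the 8 had an unadjusted p of 0.05 or lower, against 14.1%. Without both arrays that stand apart the count was also 0, against 5.61% of all genes. Both Ppard (-0.29, unadjusted p = 0.0161, adjusted p = 0.208) and Plin2 (-0.55, unadjusted p = 0.0234, adjusted p = 0.249) had lower means at P7. Over the whole phase, from E11.5 to P7, 3 of the 8 genes rose and none fell, where 30.1% of all genes were called 16.8% higher and 13.3% lower. No overlap between groups was seen for 5 of the 8, against 42.6% of all genes. Higher genes made up 55.7% of those calls, or 36.2% with median centring. Pdk4 rose by 4.5 on the log2 scale (SE 0.60, adjusted p = 0.000537), a 22.6-fold change, Cpt1a by 1.64 (SE 0.24, adjusted p = 0.000824) and Pparg by 1.14 (SE 0.31, adjusted p = 0.0197). Ppara differed by 0.46 (adjusted p = 0.0732). It was called with the replicate number as a block over all 12 arrays (adjusted p = 0.0466). That block also held E15.5. Deviations of same-numbered E11.5 and E15.5 arrays from their group means correlated at 0.59, -0.45 and 0.64. Ppara was also called without both arrays that stand apart (0.58, adjusted p = 0.00722). In that fit, which called 40.3% of all genes, Pdk4 rose by 5.03, Cpt1a by 1.75 and Pparg by 1.23 (adjusted p = 0.0153). Pparg lost its call without E11.5 replicate 1 or without P7 replicate 1, its value falling to 0.79 and its adjusted p reaching 0.0788, and also with only the 2 groups in the fit (adjusted p = 0.0624). An F-test across the 4 ages called Pparg, Pdk4, Cpt1a and Plin2, which is 4 of 8, where it called 30% of all genes. The count was also 4 without both arrays that stand apart, where 45.6% of all genes were called, but 2 under 5 other settings, own local background and slide as a random block among them, and 2 in 5 of the 12 runs that left out 1 array, namely E11.5 replicate 1, E15.5 replicate 2 or any 1 of the 3 P0 arrays.

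Other genes of the pathway were read as gene lists. Of 24 genes of fatty acid oxidation, 7 rose and none fell from E15.5 to P0, where 11.3% of all genes rose, and 12 rose and none fell from E11.5 to P7, where 16.8% of all genes rose and 13.3% fell. The median log2 change of that list over the whole phase was 0.98, against -0.01 for all genes tested. Acadl, an acyl-CoA dehydrogenase of mitochondrial oxidation, rose by 2.44 and Cpt1b, the muscle form of the carnitine enzyme, by 2.22 from E11.5 to P7. Of 21 genes of fatty acid uptake and storage, 11 rose and none fell over the same span, against the same shares, led by the lipid droplet genes Cidea (5.42) and Plin4 (3.57). Among 15 receptor partners and coregulators, 4 rose and 3 fell, 7 of 15 where 30.1% of all genes were called. The largest rise was that of Rxrg (2.44), another Rxr receptor, and Med1 of the mediator complex fell by 0.68.

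Markers of other tissues moved over the same ages. The mean log2 ratio of 10 skeletal muscle markers was 0.68 at E11.5, 1.32 at E15.5, 3.94 at P0 and 4.63 at P7, and all 10 rose from E11.5 to P7. The embryonic arrays ranged from -0.20 to 2.34 and the P0 arrays from 3.71 to 4.15. From E11.5 to P7, 6 of 10 squamous markers and 5 of 6 macrophage markers rose as well. The mean of 8 fat markers went from 0.09 at E11.5 to 1.14 at P7, and 2 of the 4 tested were called higher. That of 6 smooth muscle markers went from 2.19 to 3.77, with none called. What part these tissues had in the rise of Pdk4, Cpt1a and Pparg was not tested.

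**Figure D2:**
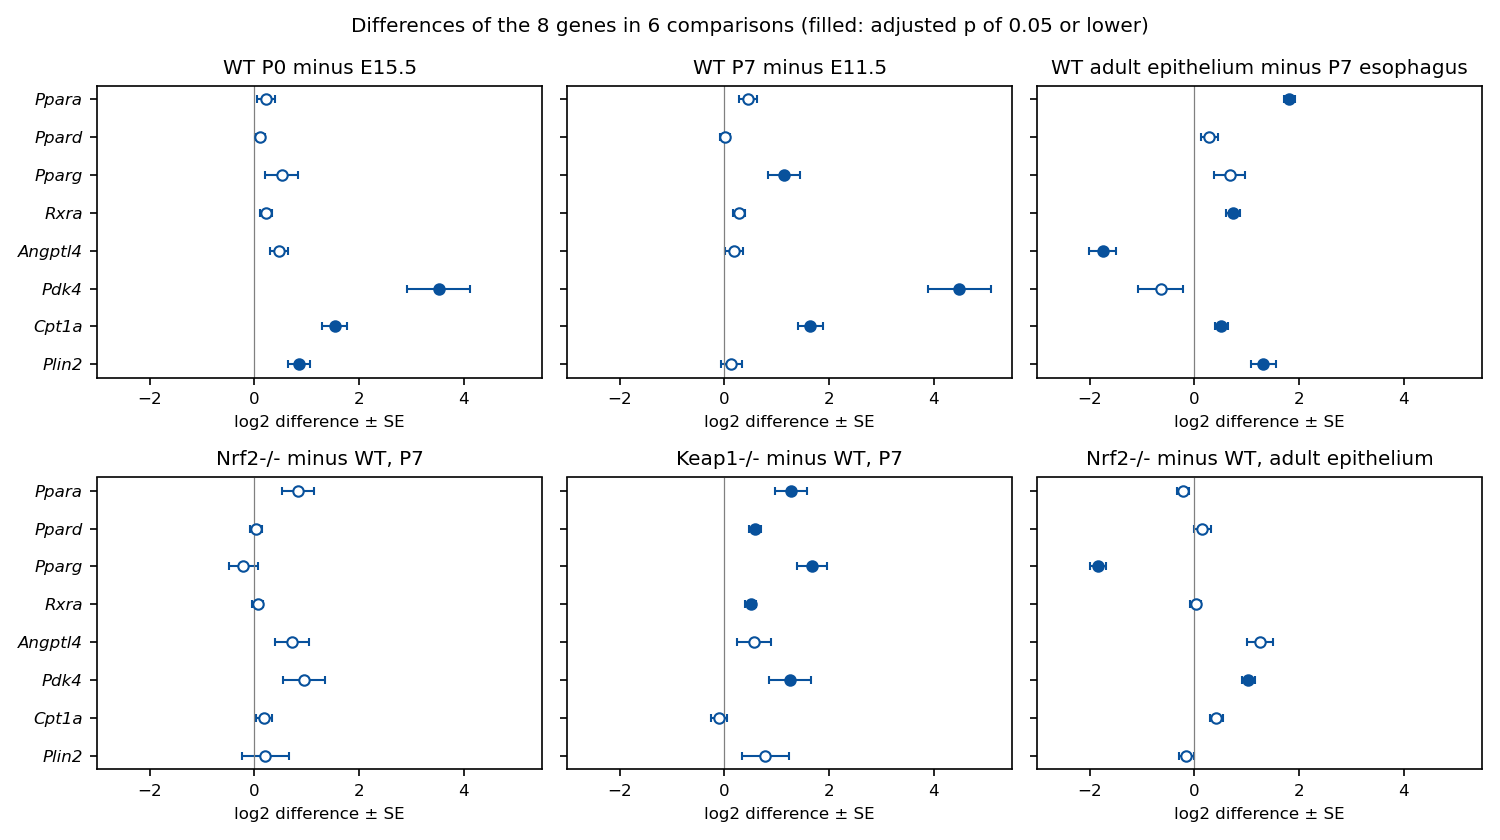
Log2 difference between groups with its standard error (horizontal axis) for each of the 8 genes (vertical axis) in 6 comparisons, with filled points where the adjusted p was 0.05 or lower. The receptors and Rxra are filled in Keap1-/- at P7, from 0.50 for Rxra to 1.67 for Pparg, and Pparg lies on opposite sides of 0 in Keap1-/- at P7 (1.67) and in adult Nrf2-/- (-1.84).

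At P7, the genotypes ask what loss of Nrf2, loss of Keap1 and loss of both do to these genes. In Nrf2-/- esophagus none of the 8 was called, where 0.0156% of the 19200 genes tested were called by limma (0.00521% higher and 0.0104% lower) and 10.8% had an unadjusted p of 0.05 or lower. Unadjusted, 3 of the 8 reached that level, and for 2 of the 8 the groups did not overlap, against 16.4% of all genes. Leaving out 1 array moved Pdk4 to 0.39 (without wild-type replicate 2) and Ppara to 0.38 (without Nrf2-/- replicate 3). With all arrays, Pdk4 differed by 0.95 (unadjusted p = 0.0386, adjusted p = 0.453), Ppara by 0.83 (unadjusted p = 0.0189, adjusted p = 0.408) and Angptl4 by 0.72 (unadjusted p = 0.0482, adjusted p = 0.459). Replicate 3 of Nrf2-/- had the highest Ppara, Pparg, Rxra, Cpt1a and Plin2 of its group.

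In Keap1-/- esophagus 5 of the 8 genes rose and none fell, against 33.3% of all genes called and 15.4% called higher and 18% lower. Groups did not overlap for 6 of the 8, against 45% of all genes. Higher genes were 46.1% of all calls, or 66.1% with median centring. All 3 receptors and Rxra were among them. Pparg rose by 1.67 on the log2 scale (SE 0.28, adjusted p = 0.00136), a 3.18-fold change, and Ppara by 1.27 (SE 0.30, adjusted p = 0.00841), a 2.42-fold change. The dim Ppard rose by 0.59 (SE 0.11, adjusted p = 0.00289) and Rxra by 0.50 (SE 0.11, adjusted p = 0.00479). Of the targets, Pdk4 alone was called, with an increase of 1.25 (SE 0.40, adjusted p = 0.0348). Plin2 differed by 0.79 (adjusted p = 0.2), Angptl4 by 0.57 (adjusted p = 0.202) and Cpt1a by -0.10 (adjusted p = 0.664).

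The calls of Ppara, Ppard, Pparg and Rxra held in all 12 runs that left out 1 array. The call of Pdk4 was lost in 4 of them, without wild-type replicate 2, which had the lowest Pdk4 of its group, or without any 1 of the 3 Keap1-/- arrays, with values down to 0.69. It was also lost with the processed signals of the scanner software (1.09, adjusted p = 0.0699), with scale normalization (0.99, adjusted p = 0.0927) and with only the 2 groups in the fit. For Ppard, median centring in place of loess gave 0.26 with an adjusted p of 0.0576. Over all 26 alternatives the difference of Ppard ranged from 0.26 to 1.71, and 24 of them kept its call.

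In the Nrf2-/-Keap1-/- esophagus none of the 8 was called against wild-type, where 0.458% of all genes were called by limma (0.323% higher and 0.135% lower) and 17.5% had an unadjusted p of 0.05 or lower. Ppara was the only 1 of the 8 at that level, with a difference of 0.74 (unadjusted p = 0.0316, adjusted p = 0.237). For 3 of the 8 the groups did not overlap, against 21.6% of all genes. Tested directly against the double mutant, Keap1-/- esophagus was higher for 3 of the 8 genes, where 33.4% of all genes were called 15.1% higher and 18.3% lower in Keap1-/-. No overlap between groups was seen for 7 of the 8, against 48.5% of all genes. These were Pparg (1.18, SE 0.28, adjusted p = 0.00914), Rxra (0.47, SE 0.11, adjusted p = 0.00687) and Ppard (0.38, SE 0.11, adjusted p = 0.0266). Ppara differed by 0.53 with an adjusted p of 0.201 and Plin2 by 0.96 with an adjusted p of 0.122. Ppard lost its call in 4 of 12 runs that left out 1 array and, with no background correction, reached an adjusted p of 0.0526. Between the double mutant and Nrf2-/- none of the 8 was called, where 0% of all genes were called by limma and 6.29% had an unadjusted p of 0.05 or lower. For 2 of the 8 the groups did not overlap, against 14.3% of all genes. Pparg (0.70, unadjusted p = 0.0309) and Cpt1a (-0.49, unadjusted p = 0.0103) were at that level. An F-test over the 4 genotypes called the 3 receptors and Rxra and none of the targets, which is 4 of 8, where it called 33.8% of all genes. It called 2 of the 8 without Keap1-/- replicate 2 or without Keap1-/- replicate 3.

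In Keap1-/-, 8 of 24 fatty acid oxidation genes rose and 1 fell, led by Cpt1b (1.72) and Cpt2, the inner carnitine enzyme (1.33), with Ehhadh of peroxisomal oxidation falling by 1.69. Counted over both directions, these 9 of 24, like the 7 of 21 and 4 of 15 called in the lists that follow, lie near the 33.3% of all genes called. By direction, 15.4% of all genes were called higher and 18% lower. Of the uptake and storage genes, 6 of 21 rose and 1 fell. Fabp5, the fatty acid binding protein of squamous epithelium, rose by 4.11 on the log2 scale, a 17.2-fold change, and Plin4 by 2.21, while Acsl4 fell by 0.53. Lpin1 rose by 1.46 among the partners and coregulators, of which 3 of 15 rose and 1, Nrip1, fell. Against the double mutant, Fabp5 was 3.81 higher in Keap1-/- and Plin1, the droplet coat of fat cells, was lower by a log2 difference of -3.45.

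Markers of fat differed between these samples. The mean log2 ratio of 8 fat markers was 1.14 in wild-type P7 esophagus, 2.20 in Nrf2-/-, 2.17 in Keap1-/- and 3.88 in the double mutant, with ranges of 0.90 to 1.31, 1.80 to 2.55, 1.57 to 2.50 and 3.38 to 4.16. Adipoq, the hormone of fat cells, was well above background on 2 of 3 wild-type arrays and on all mutant arrays, while Lep was not well above background on any array of the series. Pparg, itself a fat cell gene, had mean log2 ratios of 0.02 in wild-type, -0.19 in Nrf2-/-, 1.69 in Keap1-/- and 0.51 in the double mutant. The 10 skeletal muscle markers had mean log2 ratios of 4.63, 4.99, 5.12 and 4.76 in the same order, and 3 of 10 were called higher in Keap1-/-. Smooth muscle markers had means of 3.77, 3.63, 2.85 and 3.24, and in Keap1-/- 5 of 6 were called lower and 1 higher. Macrophage markers were lower in Keap1-/- (mean -0.04, against 0.74 in wild-type), and 5 of 6 fell. Squamous markers had means between 3.44 and 3.56 in all 4 genotypes, but in Keap1-/- 1 of 10 was called higher and 1 lower. Krt14, a keratin of basal cells, had a mean of 3.79 there and 2.81 in wild-type, and Ivl, which encodes involucrin of differentiated cells, 0.44 and 1.42. What part fat, either muscle, macrophages, epithelium or scan had in the differences of the 8 genes was not tested.

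**Figure D3:**
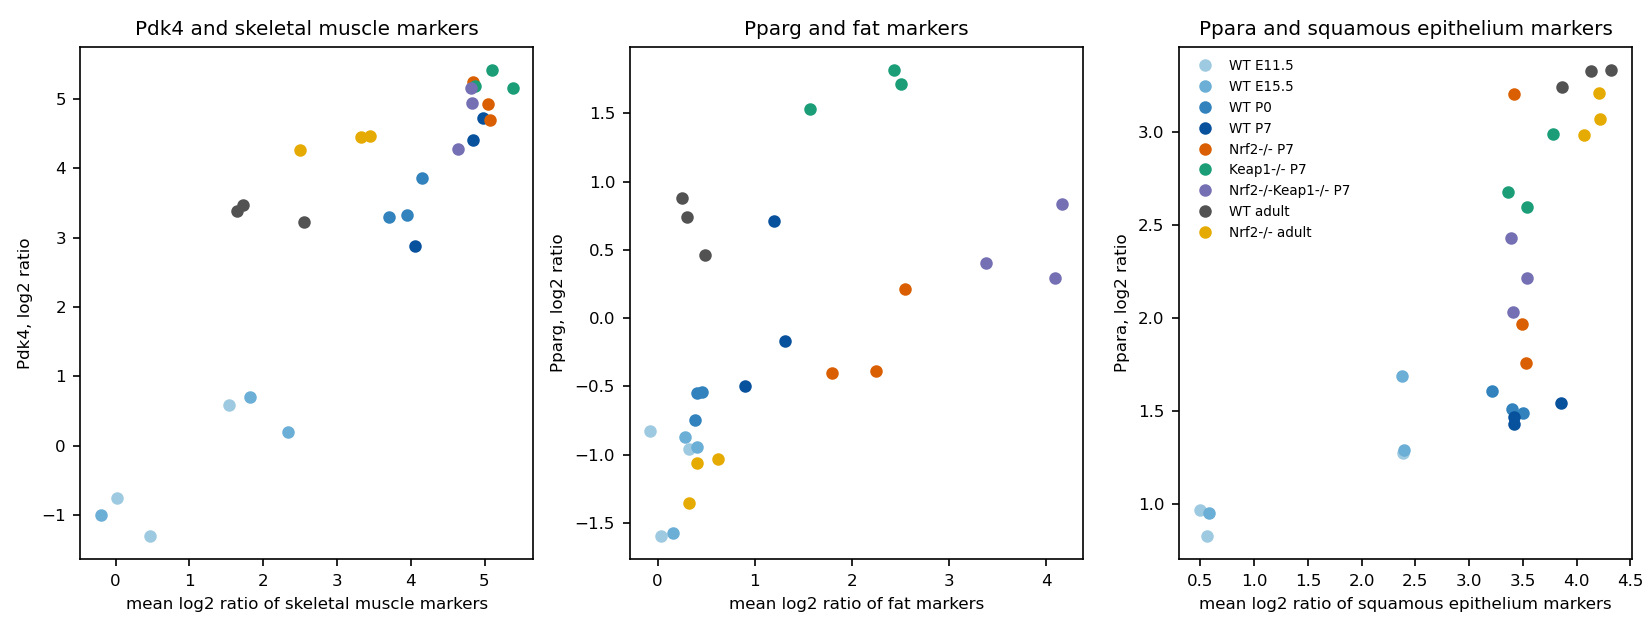
Log2 ratio of Pdk4, Pparg and Ppara (vertical axes) against the mean log2 ratio of markers of skeletal muscle, fat and squamous epithelium (horizontal axes), with 1 point per array coloured by group. On the embryonic arrays Pdk4 lies between -1.30 and 0.70 and muscle markers between -0.20 and 2.34. Fat markers lie between 3.38 and 4.16 in the double mutant and between 1.57 and 2.50 in Keap1-/-. Pparg lies between 0.29 and 0.83 in the double mutant and between 1.53 and 1.81 in Keap1-/-. What part these tissues had was not tested.

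From P7 to adult, the comparison of wild-type groups joins the maturation phase with the change from whole esophagus to epithelium. In it 5 of the 8 genes were called, 4 higher and 1 lower, against 42.9% of the 18137 genes tested, 19.9% of them called higher and 22.9% lower. Groups did not overlap for 5 of the 8, against 55.8% of all genes. Ppara rose by 1.82 on the log2 scale (SE 0.11, adjusted p = 3.62e-05), a 3.53-fold change. Plin2 rose by 1.32 (SE 0.24, adjusted p = 0.0041), Rxra by 0.74 (SE 0.14, adjusted p = 0.00498) and Cpt1a by 0.52 (SE 0.13, adjusted p = 0.0141). Angptl4 fell by 1.75 (SE 0.26, adjusted p = 0.00156), a 3.36-fold change. Pparg (0.68, adjusted p = 0.105), Pdk4 (-0.64, adjusted p = 0.266) and Ppard (0.29, adjusted p = 0.177) were not called.

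Within the scan that held all 3 P7 arrays and 2 of the adult arrays, the differences were 1.80 for Ppara, 1.43 for Plin2, 0.79 for Rxra, 0.49 for Cpt1a and -2.04 for Angptl4. Cpt1a lost its call without P7 replicate 3 or without adult replicate 1, with an adjusted p of up to 0.0507. Under the setting named own local background, Ppara differed by 0.23 (adjusted p = 0.83). Its 3 adult arrays then read 0.74, 3.33 and 1.07. That setting differs only in keeping the few spots, none of them of Ppara, whose local background was very high. Spots of Ppara kept their own background either way, so the setting reached them only through steps over whole arrays. Cpt1a differed by -0.03 under that setting. Median centring left Angptl4 at -1.40 with an adjusted p of 0.0734.

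Skeletal muscle markers fell from a mean of 4.63 to 1.97 between these groups, and 9 of 10 were called lower. Of the other tissues, 4 of 6 smooth muscle, 4 of 5 endothelial, 3 of 3 erythroid and 4 of 6 macrophage markers tested were called lower, and 4 of 10 squamous markers were called higher, their mean going from 3.56 to 4.11. Skeletal muscle markers were still well above background on all 3 adult arrays. The lists moved in both directions. Of 23 oxidation genes tested, 3 rose and 5 fell, where 19.9% of all genes rose and 22.9% fell, with Cpt2 (0.82) and Hadha (0.56) highest and the muscle form Cpt1b (-2.24) and Cyp4a14 (-1.49) lowest. Of 21 uptake and storage genes, 4 rose and 9 fell, with Fabp5 up by 5.0, which is 32-fold, and Slc27a4, a fatty acid transporter, by 1.38, while Fabp3 of muscle and heart fell by 3.78 and Lpl, lipoprotein lipase, by 3.08. Of 15 partners and coregulators 3 rose and 4 fell. Among them the coactivators Ncoa3 (1.09) and Ncoa2 (0.83) rose, and Rxrg (-3.89) and Ppargc1a (-1.59) fell. The part of the change of tissue in these values cannot be told apart from age.

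In adult epithelium, Nrf2-/- differed from wild-type in 2 of the 8 genes, where 0.446% of the 18173 genes tested were called, 0.226% higher and 0.22% lower. For 5 of the 8 the groups did not overlap, against 22.6% of all genes. Higher genes were 50.6% of all calls, 84.2% with median centring and 29.4% with the processed signals of the scanner software. Pparg fell by 1.84 on the log2 scale (SE 0.15, adjusted p = 0.00323), a 3.58-fold change, with the groups well apart. Pdk4 rose by 1.03 (SE 0.12, adjusted p = 0.017), a 2.04-fold change. Angptl4 differed by 1.26 with an adjusted p of 0.0971, all 3 Nrf2-/- arrays lying above all 3 wild-type arrays. Cpt1a differed by 0.42 (adjusted p = 0.182), and Ppara (-0.21), Plin2 (-0.15), Ppard (0.15) and Rxra (0.02) had adjusted p between 0.384 and 0.934. By limma, no gene of the oxidation, storage or coregulator lists was called, over 23, 20 and 15 genes tested, and 4, 3 and 1 of them passed 0.05 before adjustment.

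The call of Pparg held in all 6 runs that left out 1 array, with values from -1.96 to -1.74, and was lost under median centring (-1.23, adjusted p = 0.0658), which moved the median of all genes by 0.40. The call of Pdk4 was less stable. It was lost in 4 of 6 runs that left out 1 array, without wild-type replicate 1 or 2 or Nrf2-/- replicate 2 or 3, and with scan as a block (0.98, adjusted p = 0.135), scale normalization (0.26, adjusted p = 0.306) and the processed signals of the scanner software (0.70, adjusted p = 0.216). Wild-type replicates 1 and 2 were read in a scan without adult Nrf2-/- arrays, with the earlier of 2 software versions. Wild-type replicate 3 and all 3 Nrf2-/- arrays had the later version, so genotype is partly mixed with scan and software here. Within the scan that held 2 Nrf2-/- arrays and 1 wild-type array, the differences were -1.67 for Pparg, 0.98 for Pdk4 and 0.59 for Angptl4. Skeletal muscle markers also differed, with a mean of 1.97 in wild-type (1.64 to 2.55) and 3.09 in Nrf2-/- (2.49 to 3.44), all 10 higher in mean and none called. Macrophage markers had means of -0.14 (-0.76 to 0.31) and 0.81 (0.18 to 1.36), all 6 higher in mean and none called. Fat markers had means of 0.35 and 0.45, and of the 5 tested 3 were higher in mean and none was called. Adipoq was not well above background on any adult array. Cidec of the same list was well above background on all 3 arrays of both groups, with means of 0.42 in wild-type and 1.36 in Nrf2-/-. What part muscle, macrophages or fat had in Pdk4 and Angptl4 was not tested.

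Whether loss of Nrf2 acts differently in P7 whole esophagus and adult epithelium was tested as an interaction, in which age and tissue cannot be told apart. The adult Nrf2-/- arrays were also read in other scans than the P7 arrays of this fit. Of the 19527 genes tested, 0.0973% were called by limma (0.0666% higher and 0.0307% lower) and 11.2% passed 0.05 before adjustment. None of the 8 was called. Pparg had the largest interaction, -1.63 (unadjusted p = 0.00153, adjusted p = 0.193), and was called in 1 of the runs that left out 1 array, without wild-type P7 replicate 1 (adjusted p = 0.0473). Ppara differed by -1.04 (unadjusted p = 0.0251, adjusted p = 0.377).

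Rxra and Cpt1a were each read by 2 probes, and those of Rxra did not move alike. Probe A_51_P307370 had group means from -0.64 to 0.77 and probe A_52_P188139 from 1.53 to 2.73. In Keap1-/- against the double mutant, the first gave a difference of 0.18 (adjusted p = 0.228) and the second 0.76 (adjusted p = 0.00229). In adult Nrf2-/- the first had a mean of 0.77 ± 0.12 against 0.43 ± 0.27 (SD, n = 3) in wild-type, and the second 2.44 ± 0.12 against 2.73 ± 0.12, so the near-zero difference of the gene averaged values of opposite sign. Neither probe was called there (0.33, adjusted p = 0.336, and -0.29, adjusted p = 0.298). Probes of Cpt1a both rose from E15.5 to P0, by 1.70 (adjusted p = 0.0021) and 1.36 (adjusted p = 0.0032). The change of Cpt1a from P7 to adult was 0.40 by probe A_51_P427674 (adjusted p = 0.0874), not called, and 0.64 (adjusted p = 0.00973) by probe A_52_P219753.

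**Figure D4:**
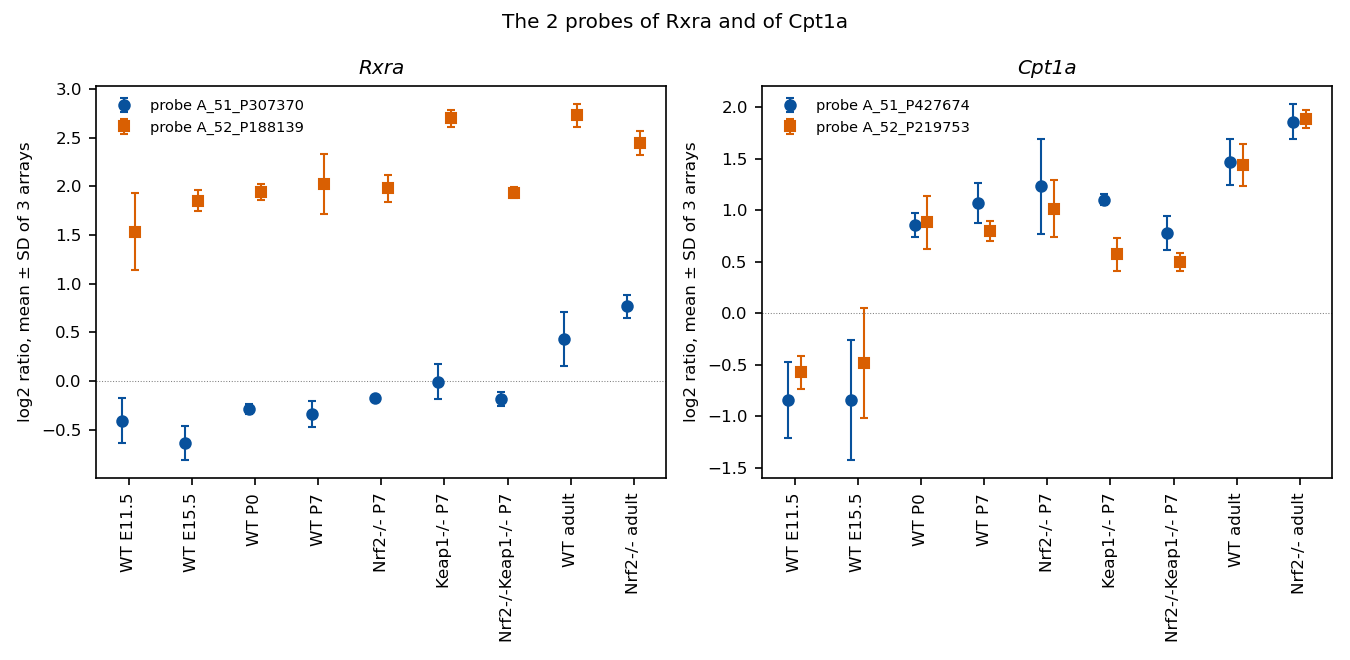
Mean log2 ratio with SD over 3 arrays (vertical axis) for each of the 2 probes of Rxra and of Cpt1a in the 9 groups (horizontal axis). From wild-type to Nrf2-/- adults the mean of one Rxra probe goes from 0.43 to 0.77 and that of the other from 2.73 to 2.44, and both Cpt1a probes step up between E15.5 and P0.

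Spots that the scanner software marked as outliers were kept, and the marks fell unevenly on these genes. They covered 70.4% of the spots of Angptl4, 51.9% of those of Plin2 and of probe A_52_P188139 of Rxra, 37.4% of those of the 10-spot probe of Cpt1a and 33.3% of those of Pdk4, against 9.03% of all spots. Ppara had 8.52% and Pparg 5.93% marked, and Ppard none. The 3 genes read by 10 spots of a probe had a median SD between spots of 0.13 for Ppara, 0.13 for Pparg and 0.11 for Cpt1a, which is the error of reading 1 array and not the spread between esophagi.

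As a description of which other genes run alongside, Pearson's r was taken over the 9 group means, which share the reference RNA and, in part, slides and scans, among 20889 genes. Pdk4 ran closest to the muscle gene Mybpc2 (0.992), to C1qtnf5 (0.989) and to the muscle gene Myh4 (0.989). Ppara ran closest to Trappc5 (0.989), to Hadh (0.983), an enzyme of fatty acid oxidation, and to Synrg (0.983). For the other genes only the closest is given. Plin2 ran closest to Stard5 (0.982), a lipid transfer protein. Pparg ran closest to Eif4ebp2 (0.968), Ppard to Arl4a (0.956), Rxra to Ctrb1 (0.998), Angptl4 to Hba-a1 (0.944) and Cpt1a to a transcript named TC1614884 (0.985). Among the 8 genes, r was highest between Ppara and Rxra (0.949), Rxra and Plin2 (0.931), Ppara and Plin2 (0.834) and Pdk4 and Cpt1a (0.831), and Angptl4 had its highest r, 0.25, with Pdk4.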

How the data were processed

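Expression was measured on 27 two-channel Agilent 4x44k arrays, with the sample in Cy5 and Universal Mouse Reference RNA in Cy3 and no dye swap. The authors deposited mean spot and local background intensity before subtraction, processed intensity that was background-subtracted and dye-normalized, flags on each spot, a log10 ratio per spot and a log10 ratio per probe that equalled the former within 0.005. Per the labels the software was Agilent Feature Extraction 9.1, while file headers give 2 later versions, on 20 and 7 arrays. Genes, lists and comparisons were chosen with earlier results of these data known.

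Mean intensities were corrected by normexp (offset 50) and normalized by loess within arrays. Where the local background of a spot exceeded the array's median background 5-fold, the median replaced it and the spot was left out, which touched 0.00367% of spots and none of the 8 genes. All other spots kept their own background. The setting named own local background kept these few spots as well. It thus reached the 8 genes only through steps over whole arrays. Spots marked as outliers were kept. Spots of a probe, then probes of a gene, were averaged as log2 ratios. Symbols came from RefSeq accessions for 66.6% of 41174 probes and otherwise from the newer annotation in the files. A gene was tested if 3 or more arrays of a fit held it well above background in Cy5, with at least 2 values per group, and all 8 genes passed in every comparison. Tests were limma's moderated tests (limma 3.58.1 and statmod 1.5.0 in R 4.3.3) with Benjamini-Hochberg adjustment over all genes tested, and were tested on simulated data. The 4 ages and the 4 genotypes at P7 each shared 1 fit of 12 arrays, the interaction used 12, and the other comparisons 6. SAM, the method of the study, was not run. The p-values measure the spread between 3 esophagi per group.

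Besides the 8 genes in every comparison, at most the 2 called genes of each list with the largest increase and the 2 with the largest decrease were named, with Nfe2l2, Keap1 and Nqo1 as a check of labels. Of the 3 genes most correlated with each of the 8, all were named for Ppara and Pdk4, and only the closest for the others. Markers were named beside them, and 1 gene that this rule names is not reported here. Replicate numbers are shared between groups by label only. Deviations of same-numbered arrays from their group means correlated at over 0.1 for all 3 numbers from P0 to P7 (0.12 to 0.36), from E11.5 to P7 (0.12 to 0.19) and between Keap1-/- and the double mutant (0.12 to 0.35), and in no other comparison checked. These correlations do not by themselves show that the samples were paired. The fits had no replicate block, and the block was an alternative. Alternatives were other background corrections, processed signals, the deposited ratios, median centring, scale normalization, other filters, outlier-marked spots left out, the brightest probe or each probe alone (the last chosen after seeing the data), a fit of all 27 arrays or of the compared groups alone, replicate, slide or scan as a block, a change of at least 2-fold, and each array left out. The number of arrays limits the precision.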

Additional observations from a re-analysis of the deposited data

How the results depend on the processing

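Among the differences of single genes under all alternatives, 853 kept their direction and their side of the threshold, 53 lost the call, 14 gained it and 2 turned in sign. With own local background, Cpt1a from P7 to adult turned to -0.0275 and the interaction of Ppara to 0.55. Of the counts of the 8 genes called, 329 values under alternatives stayed within 1.5 times the count reported and 35 did not. From E11.5 to E15.5 the count was 1 without both arrays that stand apart, in place of 0. From E15.5 to P0 it was 1 in place of 3 with outlier-marked spots left out, where Angptl4, Pdk4 and Plin2 had too few values to be tested. From P0 to P7 it was 1 in place of 0 with median centring. Across the 4 ages it was 2 in place of 4 with own local background, with processed signals, with the deposited ratios, with outlier-marked spots left out and with slide as a random block, and from 2 to 4 in runs without 1 array. In Keap1-/- it was 3 in place of 5, and against the double mutant 1 in place of 3, when a change of at least 2-fold was asked, and leaving out 1 array gave 2 to 5 in the second. Across the 4 genotypes, leaving out 1 array gave 2 to 5 in place of 4. From P7 to adult it was 3 in place of 5 with at least 2-fold, with median centring and with outlier-marked spots left out, and 2 with own local background. In adult Nrf2-/- it was 4 in place of 2 with own local background, 0 with median centring, 1 with processed signals, deposited ratios, scale normalization, the replicate block, slide as a random block or scan as a block, and 1 to 3 without 1 array. The interaction gave 0 to 1 without 1 array. The share of all genes called also moved between settings, as given below for some of them. It rose in adult Nrf2-/- with own local background, where the count was 4. These counts alone therefore say nothing about the 8 genes as a set. The cause of the changes in these counts was not tested, apart from the untested genes named.

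Counts over all genes moved by more than 1.5 times in several settings. They went from 3923 to 1732 from E15.5 to P0 and from 81 to 1684 in adult Nrf2-/- with own local background, from 88 to 4 in the double mutant with processed signals, and from 7774 to 4318 from P7 to adult with median centring. Median centring moved the median of all genes to 0.40 in adult Nrf2-/-, 0.30 in the interaction and 0.11 in Keap1-/-, and the processed signals to 0.14 from P7 to adult, -0.10 in adult Nrf2-/- and -0.11 from E11.5 to P7. Where the numbers were taken to pair the samples, the replicate block changed the call of Ppara from E11.5 to P7 and no other of the 8 genes. In adult Nrf2-/-, where the numbers are shared by label only (correlations of 0.02, 0.04 and -0.14), the block left Pdk4 at an adjusted p of 0.101. Low signal limits Ppard, which was well above background on 21 of 27 arrays.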
